A study of Mus musculus with 4 samples.

Results

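The 42 genes described here encode the working parts of TGF-β and BMP signalling: 14 ligands, 3 secreted antagonists, 10 receptors, 8 Smads, 4 Id genes and 3 co-repressors. Their open chromatin was read from 1 list of ATAC-seq peaks of mouse colonic organoids. A region of that list was counted for a gene in either of 2 ways. It could have a summit inside the gene or within 1 kb of it. Alternatively, or as well, its strongest summit lay over 1 kb from every annotated gene end, with an end of that gene as the nearest protein-coding end within 100 kb. In all, 465 of 113404 regions were counted, holding 767 of 157922 summits, and none was counted for more than 1 gene. Of these, 282 lay in or beside a member, 394 lay away from gene ends, and 211 belonged to both classes.

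The organoids were cultures of colonic epithelium from wild-type mice with chronic colitis or from healthy controls. They were treated for 24 h with 10 µM T-5224, which blocks AP-1, or with 0.1% DMSO as vehicle. The groups were colitis with T-5224, control with T-5224, colitis with DMSO and control with DMSO, with 1 library each. All 4 shared a growth medium that held EGF, R-spondin, Wnt and Noggin, so the protein made by one of the genes described here, Nog, was supplied to every culture. The cells were frozen alive, later thawed and lysed with NP-40 to free the nuclei. The labels put all 4 in 1 batch and give neither the age nor the number of the mice. The peak list has no value for a single library, and the sources used here do not say which libraries entered it. Colitis was therefore not compared with control, nor T-5224 with DMSO, and no p-value is given.

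TGF-β, activin and BMP ligands are secreted dimers that bring together type I and type II receptor kinases. The type I receptor phosphorylates receptor Smads, which join Smad4, enter the nucleus and act on target genes such as the Id genes, whose proteins block differentiation factors of the helix-loop-helix class. In the colon, BMP activity is known to be low at the crypt base, where stromal cells secrete antagonists, and higher towards the surface, where cells differentiate.

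The value of a summit is the authors' fold enrichment, a linear ratio of the local pileup of ATAC-seq signal to the background expected at any base. Brackets after a value give its exact Poisson 95% interval, which covers counting error only. The expected background pileup was 7.63 and the pileup at called summits ran from 17 to 8197. How deeply any library was sequenced is unknown. The 12 epithelial marker genes examined, among them Epcam, Cdh1 and Cdx2, all had a summit within 1 kb of an outer end, with a median of 32.7-fold. An end summit was present in 2 of 8 fibroblast, 4 of 6 muscle and endothelial (66.7%) and 3 of 8 leukocyte markers, against 64.3% of all protein-coding genes, so the muscle and endothelial share was near that of any gene. The highest were Col1a1 with 16.3-fold, Myh11 with 6.84-fold and Cd68 with 21.8-fold, the last near an end of Eif4a1. None was found inside or within 1 kb of Col1a2, Lum, Thy1, Ptprc, Cd3e, Cd79a or Lyz2. The part of other cell types in the values of the members was not tested.

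Sequences before 5 start sites are shown because they span the range of accessibility and hold or lack one Smad motif. Each is the 250 bases before a RefSeq start (GRCm38.p6, the assembly that mm10 represents), read 5′ to 3′ on the gene's strand. Capitals mark GGCGCC, a GC-rich element that BMP-activated Smads are known to bind. The windows are chr12:25096093-25096342 (minus strand) for Id2, chr13:48260866-48261115 (plus strand) for Id4 and chr4:47352972-47353221 (plus strand) for Tgfbr1. Those of Grem1 and Bmp4 are chr2:113758649-113758898 and chr14:46390670-46390919, both on the minus strand.
Id2: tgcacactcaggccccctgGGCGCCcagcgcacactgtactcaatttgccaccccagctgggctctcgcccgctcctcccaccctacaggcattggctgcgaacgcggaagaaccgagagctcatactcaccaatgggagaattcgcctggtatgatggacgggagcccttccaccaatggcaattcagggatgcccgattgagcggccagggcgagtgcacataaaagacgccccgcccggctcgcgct
Id4: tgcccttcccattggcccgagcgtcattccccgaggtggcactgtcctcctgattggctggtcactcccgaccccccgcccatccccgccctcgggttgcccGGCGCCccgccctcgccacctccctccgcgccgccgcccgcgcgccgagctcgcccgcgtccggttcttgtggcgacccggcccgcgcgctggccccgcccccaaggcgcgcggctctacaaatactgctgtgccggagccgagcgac
Tgfbr1: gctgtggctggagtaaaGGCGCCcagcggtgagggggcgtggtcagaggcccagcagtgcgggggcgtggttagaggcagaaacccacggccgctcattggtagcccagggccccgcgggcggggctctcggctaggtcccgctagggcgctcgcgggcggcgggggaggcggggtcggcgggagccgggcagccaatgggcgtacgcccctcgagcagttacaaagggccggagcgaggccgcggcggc
Grem1: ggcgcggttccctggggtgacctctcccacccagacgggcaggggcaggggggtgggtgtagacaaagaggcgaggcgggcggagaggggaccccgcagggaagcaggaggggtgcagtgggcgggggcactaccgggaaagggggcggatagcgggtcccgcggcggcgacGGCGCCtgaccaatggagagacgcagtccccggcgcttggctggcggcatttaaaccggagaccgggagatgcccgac
Bmp4: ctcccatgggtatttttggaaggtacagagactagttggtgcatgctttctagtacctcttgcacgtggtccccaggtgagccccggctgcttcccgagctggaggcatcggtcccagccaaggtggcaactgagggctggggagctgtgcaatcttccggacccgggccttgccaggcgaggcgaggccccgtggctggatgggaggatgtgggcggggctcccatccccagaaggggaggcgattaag
The Id2, Id4 and Tgfbr1 windows each held a called summit, with 61.9-fold, 28.3-fold and 62.3-fold as the strongest value within 1 kb of the start. The Grem1 and Bmp4 starts had no summit within 1 kb. The Grem1 window nonetheless held the marked element, 78 bases before the start, whereas the Bmp4 window held none.

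RefSeq promoter entries existed for 31 of the 42 members, with 41 start sites. GGCGCC stood in the window before 10 of these 41 starts (24.4%), against 12.4% of 21045 starts of protein-coding genes. The 10 genes were Bmpr1a, Bmpr2, Chrd, Grem1, Id2, Id4, Ski, Smad5, Smad9 and Tgfbr1. The windows of the members were also richer in G and C, with a median of 64.0%, against 55.6% at all starts; the part of base composition in the motif share was not tested. Every motif was searched on both strands. The Smad box CAGAC stood before 19 of the 41 starts (46.3%) and 40.7% of all starts. No member window held the AP-1 motif TGANTCA, the cyclic AMP response element TGACGTCA or the palindromic Smad element GTCTAGAC. These stood before 6.17%, 1.94% and 0.185% of all starts. Some of the 41 windows overlap, as at Smad5 and Bmpr1b, so they are not separate observations. A genome sequence was not used here, so regions away from starts were not searched.

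Most of the pathway was accessible at its gene ends. A summit lay within 1 kb of an outer end in 35 of 42 members (83.3%), against 64.3% of 21631 protein-coding genes. The median over the 42, counting 0 where there was none, was 25.7-fold, against 9.62-fold over all protein-coding genes. An end summit of at least 20-fold was found in 26 members (61.9%), against 39.7% of all genes. Counting the whole gene with 1 kb on either side, 41 members had a summit (97.6%), against 74.5% of all genes. Such a summit reached 20-fold in 29 members (69.0%), against 47.1%. The members were also longer, with a median of 39.5 kb, against 17.3 kb over all genes, and the part of length in these shares was not tested. The 7 members without an end summit were Bmp4, Bmp5, Tgfb2, Inhba, Chrd, Grem1 and Bmpr1b.

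**Figure D1:**
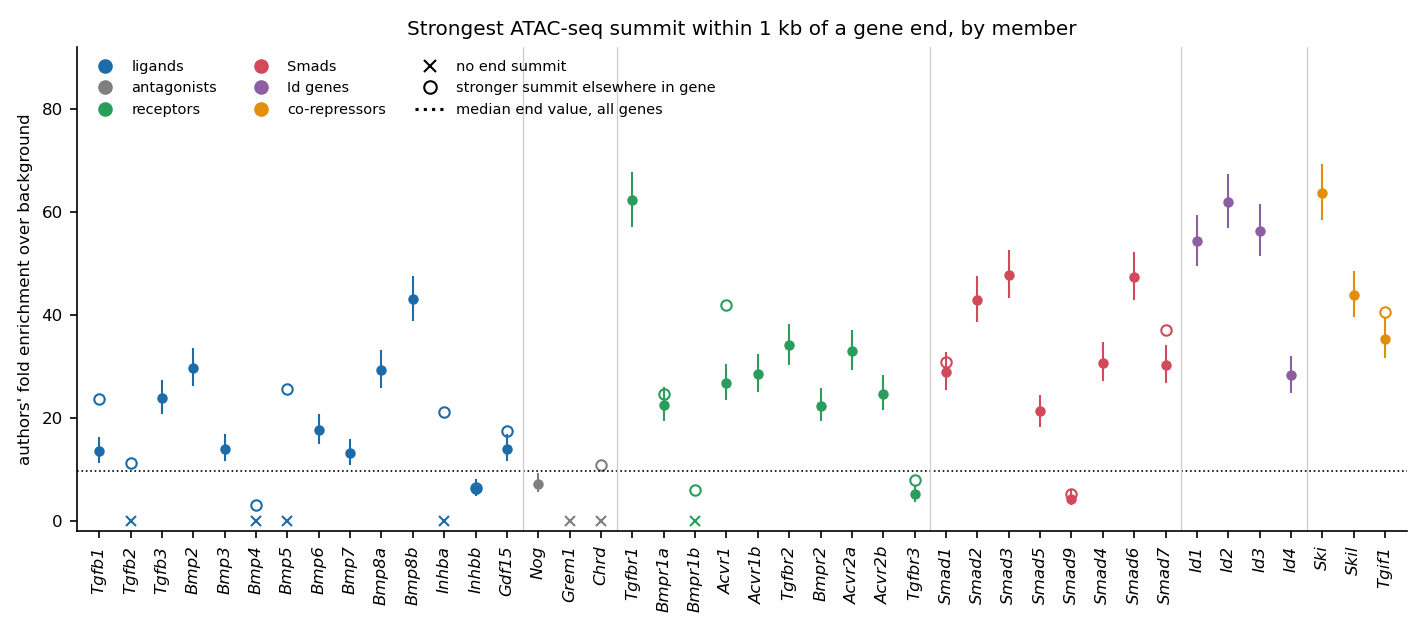
Strongest summit within 1 kb of an outer gene end for each of the 42 members, grouped by role. The vertical axis is the authors' fold enrichment, bars are exact Poisson 95% intervals, crosses mark members with no end summit, open circles a stronger summit elsewhere in the gene or within 1 kb, and the dotted line the median of all protein-coding genes, 9.62-fold. Id1, Id2, Id3, Ski and Tgfbr1 stand above 50-fold, while no antagonist reaches the dotted line at an end.

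**Figure D2:**
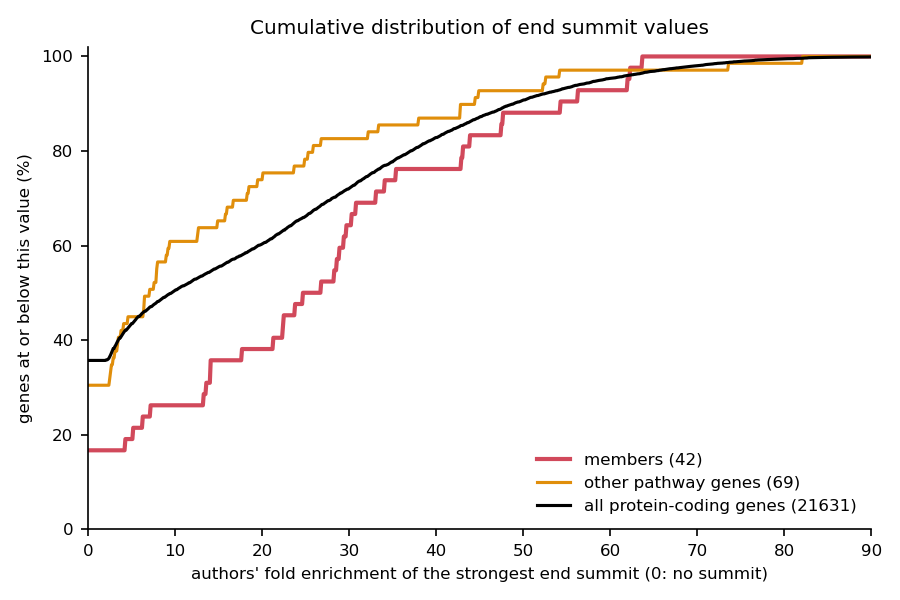
Cumulative share of genes (vertical axis, percent) at or below each fold value of the strongest end summit (horizontal axis, 0 for none), for the 42 members, 69 other pathway genes and 21631 protein-coding genes. The curve of the members starts at the 7 without an end summit and lies below that of all protein-coding genes until close to its end at Ski, 63.6-fold.

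The ligand genes ranged from closed to strongly open at their ends. Of 14, 10 had an end summit (71.4%, near the 64.3% of all protein-coding genes) and 4 reached 20-fold there (28.6%, against 39.7%). The median was 13.8-fold, against 9.62-fold over all protein-coding genes. Bmp8b, a BMP ligand studied mainly in germ cells and fat tissue, had the highest value, 43.0-fold (38.8 to 47.6). Bmp2, a BMP ligand of the colonic surface epithelium, followed with 29.7-fold (26.2 to 33.5), and Bmp8a, the close relative of Bmp8b, had 29.3-fold (25.8 to 33.2). The intervals of Bmp8b and Bmp8a did not overlap. Tgfb3 had 23.8-fold (20.6 to 27.2). The other BMP ligand genes with an end summit were lower, at 17.6-fold for Bmp6, 14.0-fold for Bmp3 and 13.2-fold for Bmp7.

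Bmp4, a BMP ligand made largely by stromal cells of the gut, was nearly closed. It had no end summit, and the strongest within the gene was 3.13-fold (2.09 to 4.53). Bmp5 had none at its ends or its RefSeq start but 25.5-fold (22.3 to 29.1) inside the gene. In 2 ligand genes the outer end missed the start. The Tgfb2 start lies inside the outer bounds, and a summit 598 bp downstream of it had 11.2-fold (9.13 to 13.7). The start of Inhba, which encodes the activin A subunit, likewise had a summit 562 bp downstream, with 21.1-fold (18.2 to 24.4). Tgfb1, the best studied TGF-β isoform, had 13.6-fold (11.2 to 16.2) near its start, where an end of B9d2 also lay, and 23.7-fold (20.5 to 27.1) 2349 bp downstream of the start, in the same region. Gdf15, a stress-induced ligand, had 14.0-fold at an end and 17.4-fold (14.7 to 20.4) within the gene. Inhbb, the other activin subunit listed, had 6.26-fold (4.72 to 8.15).

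The antagonist genes had the lowest median of the 6 roles at their ends, 0. An end summit was present in 1 of 3 (33.3%, against 64.3% of all protein-coding genes), and 3 are too few to tell. Nog, which encodes the BMP trap Noggin, had 7.19-fold (5.53 to 9.20) at an end. Chrd, encoding chordin, had none at its outer ends but 10.8-fold (8.71 to 13.2) 126 bp downstream of its RefSeq start, inside the overlapping gene Thpo. Grem1 (chromosome 2, 113748675 to 113758648), a BMP antagonist of crypt-base stroma, was the only one of the 42 with no summit in the gene or within 1 kb. The nearest region lay 15.7 kb away at 3.59-fold (a distance from the outer bounds) and was nearer to Scg5. Fewer cells with an open site and a less open site in each cell cannot be told apart in such bulk data, at these genes or any other.

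Nearly every receptor gene was open at an end. Of 10, 9 had an end summit (90%, against 64.3% of all protein-coding genes), 8 of them at least 20-fold (80%, against 39.7%). The median was 25.7-fold. Tgfbr1 (NCBI Gene 21812, chromosome 4, 47353222 to 47414926), the type I receptor of TGF-β, had the highest value, 62.3-fold (57.1 to 67.7), where an end of the lncRNA gene Gm32435 also lay. A summit at that value or above was found at an end of 3.97% of protein-coding genes. Its partner Tgfbr2, the type II receptor, had 34.1-fold (30.3 to 38.2). The activin receptor genes were Acvr2a with 33.0-fold, Acvr1b with 28.5-fold and Acvr2b with 24.7-fold. Acvr1, a type I receptor of BMP and activin ligands, had 26.8-fold (23.4 to 30.5) near its start, where an end of Upp2 also lay, and 41.97-fold (37.8 to 46.5) inside the gene. The BMP receptor genes Bmpr1a and Bmpr2 had 22.5-fold (19.4 to 25.9) and 22.4-fold (19.3 to 25.8), which overlapped almost wholly.

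The exceptions were Bmpr1b and Tgfbr3. Bmpr1b, the close relative of Bmpr1a, had no summit within 1 kb of its outer ends or of any of its 3 RefSeq starts. The 3 regions in its 332 kb reached 6.03-fold (4.52 to 7.89) at most. Tgfbr3, which encodes the co-receptor betaglycan, had 5.10-fold (3.72 to 6.83) at an end and 8.0-fold (6.24 to 10.1) within the gene.

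All 8 Smad genes had an end summit, against 64.3% of all protein-coding genes. In 7 of the Smad genes it was at least 20-fold (87.5%, against 39.7%), and the median was 30.5-fold. Those of the TGF-β and activin branch, Smad3 and Smad2, had 47.7-fold (43.2 to 52.5) and 42.9-fold (38.6 to 47.5). Those of the BMP branch were lower, at 28.9-fold (25.4 to 32.7) for Smad1, 21.2-fold (18.3 to 24.5) for Smad5 and 4.29-fold (3.04 to 5.89) for Smad9. The intervals of both TGF-β branch genes lay above those of all 3 BMP branch genes. Smad4, the shared partner, had 30.7-fold (27.1 to 34.6). The inhibitory Smads, which feed back on the receptors, had 47.4-fold (42.9 to 52.2) at Smad6 and 30.3-fold (26.7 to 34.2) at Smad7. The Smad6 summit lay 989 bp before its RefSeq start, close to the limit of the window.

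The Id genes had the highest median of the 6 roles at their ends, 55.2-fold. The median strongest summit in the gene or within 1 kb was also 55.2-fold, but in the gene body alone it was 11.8-fold. There it was above only the 7.19-fold of antagonists. Co-repressors had 40.5-fold, receptors 24.3-fold, Smads 20.5-fold and ligands 15.7-fold. Id2, known as a regulator of lymphoid and epithelial differentiation, had 61.9-fold (56.8 to 67.4), Id3 had 56.2-fold (51.3 to 61.5) and Id1 had 54.3-fold (49.5 to 59.4). The intervals of these 3 overlapped. Id4 had 28.3-fold (24.9 to 32.1), below the other three. In 3 of the 4 the strongest end summit lay outside the gene, as it did in 16 of all 35 members with an end summit. The share over all protein-coding genes was not computed, so this is not shown to be particular to Id genes. The summit was 101 bp before the start of Id2, 76 bp before that of Id3 and 199 bp before that of Id4. Id1 (NCBI Gene 15901, chromosome 2, 152736251 to 152737410) lay in a region of 9779 bp with 14 summits, at 152733110 to 152742888. Only 0.108% of regions at gene ends were as wide, where the median was 1166 bp. The region of Id3 was 5541 bp wide with 9 summits.

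The co-repressor genes were all strongly open. Ski, whose protein represses Smad targets, had 63.6-fold (58.4 to 69.2), the highest end value of the 42, with the summit 763 bp before its RefSeq start. Skil, a relative of Ski, had 43.8-fold (39.5 to 48.5), and Tgif1, a homeobox co-repressor of Smads, 35.4-fold (31.5 to 39.6). Tgif1 has 5 RefSeq starts, and each had a summit within 1 kb, between 12.8-fold and 40.5-fold. An end region of 6270 bp with 11 summits covered 4 of these starts. In all, 14 of the 42 members had an end summit in a region at least 2534 bp wide, the 90th percentile of regions at gene ends (33.3%, against 9.79% of all protein-coding genes).

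End summits were set beside RefSeq starts where these were given. Of the 24 members with both, 20 had their strongest end summit within 500 bp of a start, and in 15 the summit lay before it. An end summit lies within 1 kb of an outer end by definition, so closeness to a start there was partly fixed in advance. These counts were not made over all protein-coding genes. Among the 31 members with a start, 27 had a summit within 1 kb of one (64.5% of 17274 protein-coding genes with a start did). The 4 without were Bmp4, Bmp5, Bmpr1b and Grem1. Tgfbr1 has a second annotated start inside the gene, and no summit lay within 1 kb of it. Other gene ends lay within 1 kb of some of the end summits: protein-coding ones for 2 members, Tgfb1 and Acvr1, and lncRNA ones for 9. Neither count was made over all protein-coding genes.

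Most members also had regions away from gene ends. At least 1 region was assigned to 39 of the 42 members (92.9%), against 68.5% of all protein-coding genes. At least 5 were assigned to 28 members (66.7%), against 26.1%, and at least 10 to 16 members (38.1%), against 11.0%. The median was 6.5 regions per member and 2 per protein-coding gene. It was 3 for protein-coding genes of 30 to 60 kb and 5 for those of 60 to 120 kb, and the part of the members' greater length in these counts was not tested. The regions themselves were of ordinary strength, with a median of 4.87-fold, against 4.52-fold over all 81279 assigned regions. Of the 394, 38 reached 20-fold (9.64%), against 8.39% of all. The 38 include the 21.1-fold region of Inhba, whose summit lay 562 bp downstream of its RefSeq start. Of all 394, 210 lay inside the member itself, and 6 lay inside another protein-coding gene. The matching counts over all 81279 assigned regions were not computed. Assignment to the nearest end does not show which gene a region acts on.

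**Figure D3:**
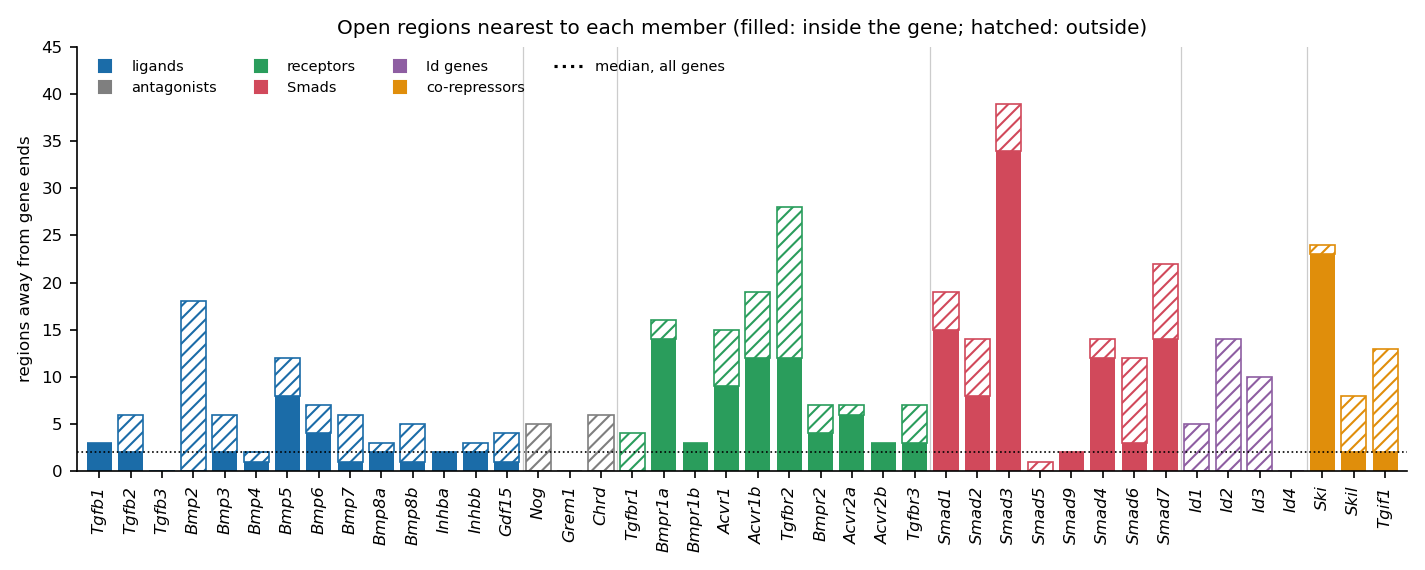
Number of regions away from gene ends (vertical axis) assigned to each of the 42 members, grouped by role. Filled bars count regions inside the gene, hatched bars those outside it, and the dotted line is the median of all protein-coding genes, 2. Smad3 has the most, 39, followed by Tgfbr2 with 28, and Grem1, Id4 and Tgfb3 have none.

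By role, the 8 Smads held 123 of the regions, a median of 14 per gene, and the 10 receptors 109, a median of 7. The co-repressors had 45, a median of 13. The 4 Id genes, all shorter than 5 kb, had 29, every one outside the gene. The 14 ligands had 77, a median of 4.5. The 3 antagonists had 11, none of which reached 20-fold, where 8.39% of all assigned regions did, so 11 are too few to tell. Median gene length was 9.97 kb for antagonists, 24.8 kb for ligands, 65.0 kb for Smads and 90.7 kb for receptors. The part of length in these role counts was not tested.

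Smad3 (NCBI Gene 17127, chromosome 9, 63646766 to 63757994) had 39 such regions, 34 of them inside its 111 kb. As many or more were assigned to 0.328% of protein-coding genes. The strongest, at chromosome 9, 63759936 to 63762171, lay 3.58 kb upstream of the start and had 30.6-fold (27.0 to 34.5), below the 47.7-fold of the start itself. Counting the whole gene with 1 kb on either side, Smad3 had 36 regions, where the median of the 2235 protein-coding genes between 60 and 120 kb long was 5 and the 95th percentile 19. Ski, of 68.5 kb, had 25, the strongest inside the gene being 41.4-fold (37.2 to 45.9), 19.6 kb from its nearer end. Smad7, of 28.6 kb, had 17, where the 95th percentile for genes of 10 to 30 kb was 7. The strongest region assigned to Smad7, 24.7 kb outside the gene, had 40.5-fold (36.3 to 44.9), and one inside it 37.0-fold (33.0 to 41.3), both higher than the 30.3-fold at its end, though the interval of the second overlapped that of the end.

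Other long members had few. Tgfbr1, of 61.7 kb, had a single region in the gene or within 1 kb, the one at its start, and Smad5, of 39.4 kb, likewise had 1. Bmpr1b had 3 in 332 kb, where the median for genes between 120 and 400 kb was 8, and Tgfbr3 had 4 in 183 kb. Bmpr1a and Bmpr1b, which both encode type I BMP receptors, thus stood apart, with 16 regions in or beside Bmpr1a and 3 in or beside Bmpr1b, although Bmpr1b is the longer gene.

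**Figure D4:**
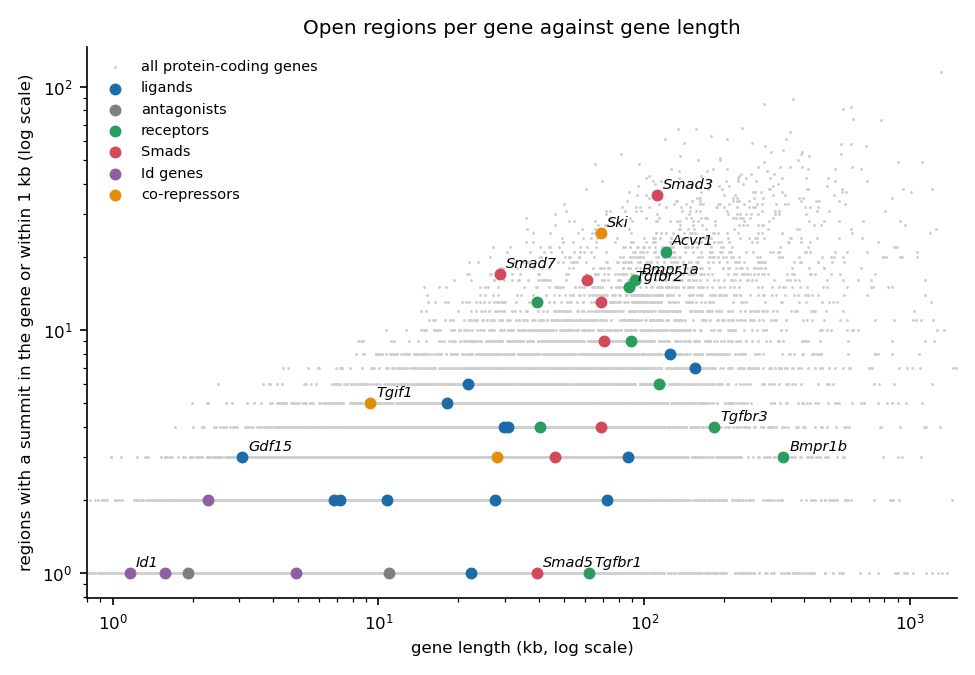
Number of regions with a summit in the gene or within 1 kb (vertical axis, log scale) against gene length in kb (horizontal axis, log scale), for members coloured by role and for all protein-coding genes in grey; genes with no region are left out. Smad3, Ski and Smad7 lie near the upper edge of the cloud for their length, and Tgfbr1, Smad5 and Bmpr1b along its lower edge.

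A region away from gene ends exceeded the strongest end summit in 20 of 42 members (47.6%), against 32.7% of all protein-coding genes. The members also had more such regions, with a median of 6.5 against 2, and the part of that in this share was not tested. Of the 20 members, 6 had no end summit at all. Among these was Inhba, whose region held the summit 562 bp downstream of its RefSeq start. In 3 more, Tgfb1, Gdf15 and Inhbb, the region was the one that also held the end summit. In the other 11 it was a separate region, and its interval lay above that of the end in 7, which were Bmp3, Nog, Acvr1, Tgfbr2, Tgfbr3, Smad7 and Tgif1. The intervals overlapped in Bmp6, Bmpr1a, Smad1 and Smad9. Tgfbr2 (chromosome 9, 116087695 to 116175363) had 28 assigned regions, 16 of them outside the gene. One at chromosome 9, 116186538 to 116194925, was 8388 bp wide with 12 summits and had 47.5-fold (43.0 to 52.4); its strongest summit lay 15.6 kb upstream of the start, inside the lncRNA gene Gm4668. Another, 48.2 kb upstream, had 45.7-fold (41.3 to 50.4). Both intervals lay above that of the Tgfbr2 start. The strongest region of Tgif1, 9.57 kb outside the gene, had 46.0-fold (41.6 to 50.8), also above its end. Bmp3 had 14.0-fold at an end but 33.7-fold (29.98 to 37.8) 11.6 kb away, inside the lncRNA gene Gm34563. Bmp5 had 34.2-fold (30.4 to 38.3) 55.0 kb outside the gene and Bmp6 23.3-fold (20.2 to 26.7) at 33.2 kb.

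Bmp2 (NCBI Gene 12156, chromosome 2, 133552159 to 133562896) was assigned 18 regions, none inside its 10.7 kb and 15 of them over 25 kb away. The 2 strongest, with 26.1-fold (22.8 to 29.7) at 53.3 kb and 24.1-fold (21.0 to 27.6) at 96.2 kb, overlapped the interval of its end summit. Id2 had 14, and the strongest, at chromosome 12, 25180242 to 25182005, had 42.2-fold (38.0 to 46.8), 85.5 kb away inside the lncRNA gene Gm36287. A region of 3467 bp with 8 summits, 2.80 kb from Id2, had 31.7-fold (28.0 to 35.6). Id3 had 10, led by 28.5-fold (25.1 to 32.3) at 26.6 kb, and Id1 had 5, led by 20.6-fold (17.7 to 23.9) at 9.38 kb. Of the remaining members with at least 5 such regions, the strongest value was 41.97-fold at Acvr1, inside the gene, 34.3-fold at Skil, 30.8-fold at Smad1, 24.9-fold at Smad2, 24.6-fold at Bmpr1a and 24.2-fold at Acvr1b. It lay between 5.45-fold and 19.2-fold at Smad4, Smad6, Acvr2a, Tgfb2, Bmp8b, Nog, Tgfbr3, Chrd, Bmp7 and Bmpr2.

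**Figure D5:**
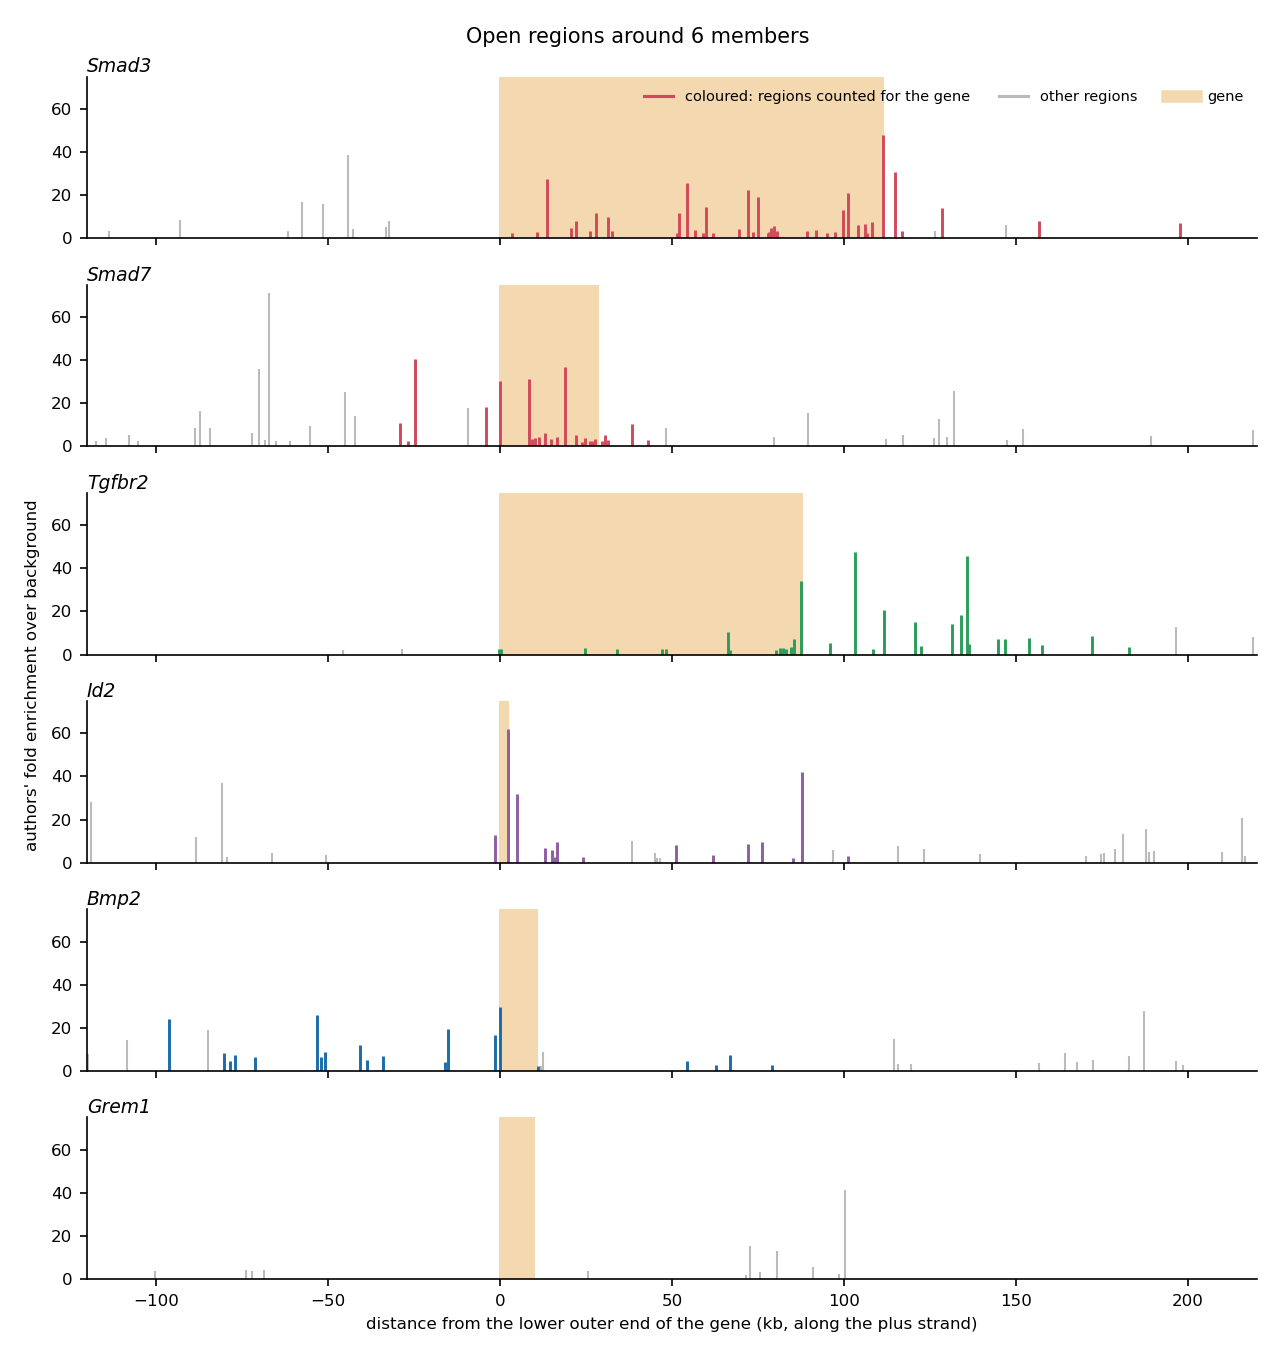
Strongest summit of each region around 6 members, as the authors' fold enrichment (vertical axis) against distance in kb from the lower outer end of the gene along the plus strand (horizontal axis). Shading marks the gene, coloured lines the regions counted for it and grey lines other regions. Smad3 and Smad7 carry regions throughout the gene, 16 of the 31 regions of Tgfbr2 and 14 of the 20 of Bmp2 lie beyond the end that has the strongest end summit, and Grem1 has none counted.

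The values closest to the limits of the assignment were weak or moderate, but stronger ones were also counted near each limit. The farthest assigned region, 98.8 kb from Id2, had 3.13-fold, and the nearest beyond the limit, 101 kb from Acvr1, had 5.45-fold. A region assigned to Bmp2 at 96.2 kb had 24.1-fold. At the 1 kb window, the farthest summit counted was 0.967 kb from Smad7 with 2.67-fold, and the nearest left out was 1.01 kb from Skil with 15.0-fold. The end summit of Smad6, with 47.4-fold, lay 0.963 kb outside the gene, so a slightly narrower window would have left it out.

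Further pathway genes that are not among the 42 were described in the same way. Of 69, 58 had a summit in the gene or within 1 kb (84.1%, against 74.5% of all genes), and in 26 it reached 20-fold (37.7%, against 47.1%). All 12 intracellular regulators had one, with a median of 38.1-fold, against 17.4-fold over all protein-coding genes. They were led by Map3k7, a kinase downstream of the receptors, with 52.5-fold, and Pmepa1, a Smad-binding inhibitor, with 50.3-fold. All 7 TGF-β target genes had one, led by Klf10 with 73.5-fold and Cdkn2b, a cell cycle inhibitor, with 42.8-fold. All 9 other receptors and co-receptors had one, led by the BMP co-receptor gene Rgmb with 73.3-fold and the decoy receptor gene Bambi with 54.1-fold. The 8 genes for ligand storage and processing were led by Ltbp4 with 48.8-fold and Ltbp1 with 39.3-fold, which encode proteins that hold latent TGF-β in the matrix.

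The other antagonists and other ligands had the lowest medians of these lists for the strongest summit in the gene or within 1 kb. Both were below the 17.4-fold of all protein-coding genes. The medians of the other receptors, 15.0-fold, and of the storage and processing genes, 16.5-fold, were also below it, though closer. Among 14 other antagonists, 10 had one (71.4%, near the 74.5% of all genes) and the median was 6.55-fold. Fstl3 led with 69.3-fold and Crim1 followed with 38.3-fold, and Cer1, Chrdl1 and Fstl1 were among those without. Among 19 other ligands, 12 had one (63.2%, against 74.5%) and the median was 3.01-fold. Bmp10, Bmp15 and Gdf2 were among those without. Gdf9 had 82.1-fold, at an end near Uqcrq, and the next was Inhbe with 14.0-fold.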

How the data were processed

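Nuclei of 4 organoid cultures, 1 per group, were profiled by bulk ATAC-seq, per the labels' protocols. The data were 1 deposited narrowPeak list. The submitters' processing notes name Bowtie2, MACS2 and mm10, with neither versions nor steps. The authors' columns are a fold enrichment (a linear ratio to background), −log10 p-value (not used), −log10 q (at least 1.51) and a score, equal in every record to the whole part of 10 times the −log10 q. All are values of a peak, not of a sample.

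The fold values were whole pileups plus 1 divided by 1 constant (tolerance 0.01), so pileups were recovered and exact Poisson intervals computed. A pileup of 17, the lowest, has an interval of 9.90 to 27.2. The sources used here do not say what a pileup counts, and copies of 1 molecule would make intervals too narrow. A single background leaves copy number and mappability undivided. Reads shared between related genes, such as Bmp8a and Bmp8b, were not examined.

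Gene bounds came from NCBI genes on GRCm38.p6, which shares mm10 coordinates. All 42 members and 103 other listed genes were found, Ctgf as Ccn2. The table gives outer bounds without exons, so an end can be the 3′ end. Starts came from the RefSeq promoter table. Regions were placed by their strongest summit. All 42 members were accounted for; other genes were named by a rule (the 2 strongest of each list and up to 3 without a summit), and the promoters printed were chosen after the values were seen. The members and lists were chosen with earlier results of these data known. Window sizes, distance limits and a −log10 q of at least 10 were varied. The steps were tested on simulated data. Python 3.11.15, numpy 2.4.6, pandas 2.3.3 and scipy 1.17.1 were used.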

Additional observations from a re-analysis of the deposited data

How the results depend on the processing

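No paired analysis was possible because the list holds no value for a library. Of 55 alternative values for 17 results, 40 stayed within 1.5 times the reported count or within the Poisson interval of the reported median. The number of members with an end summit was 35 with a 500 bp window and 36 with 2000 bp. Of the 394 regions away from gene ends, 231 passed a −log10 q limit of 10, and 241 were left when only ends within 25 kb were used. By role, requiring that q left 71 regions for Smads, 58 for receptors, 25 for co-repressors, 19 for Id genes and 6 for antagonists. The 25 kb limit left 71 for Smads, 67 for receptors, 44 for ligands, 19 for Id genes and 4 for antagonists. Counting only the gene body lowered the median strongest summit to 20.5-fold for Smads, 15.7-fold for ligands and 11.8-fold for Id genes, since this window leaves out summits just outside the gene, so the Id genes led only where those were counted. Using ends of protein-coding genes only, an alternative chosen after seeing the data, gave 435 regions. The motif search around summits was not run, since no genome was used. With no value per library, replicates could not be left out and the spread between cultures is unknown.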

Other observations

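Smad3 and Smad6, a receptor Smad and an inhibitory Smad, are neighbours on chromosome 9, with 195 kb and no other protein-coding gene between them. That interval held the strongest summits of 13 regions, the strongest being the 47.7-fold start of Smad3 itself. Id4 had no region assigned away from gene ends, but a region 33.2 kb from it, at an end of a noncoding gene, had 21.1-fold. Tgfb3 had none either, and the nearest other region, 3.61 kb away inside Ift43, had 19.9-fold and lay at an end of an annotated gene.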
